A study of Homo sapiens with 12 samples.

Results

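H9 set 2 and H9 set 1 are the pairs of ribosome profiling libraries made from H9, an established human embryonic stem cell line that derives from a single embryo. They are 4 of the 12 libraries of the series and were taken from the set number in the sample titles. Set 2 holds 2 libraries, labelled eIF2A shRNA and control shRNA, and set 1 holds 2 libraries with those same labels. No stressor and no immunoprecipitation is given for either set, so apart from the shRNA label the titles separate them by set number alone. The labels do not say whether a set is a culture, a passage, a day or a sequencing run, and what differed between the sets cannot be told apart here. The other 8 libraries came from HEK293T, a transformed human embryonic kidney line, exposed to sodium arsenite, transfected with eIF2A siRNA or control siRNA, immunoprecipitated for CBP80 or eIF4E, and likewise numbered set 2 or set 1.

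Ribosome profiling sequences the mRNA stretches that translating ribosomes protect from nuclease, so the footprints counted over a coding sequence follow both the amount of its mRNA and how often that mRNA is translated. Without the matching mRNA measurements, which were not used here, those cannot be told apart, and in a bulk sample neither can fewer cells of a kind and less RNA in each cell. eIF2A, encoded by EIF2A, binds initiator tRNA and can bring it to the ribosome by a route other than the canonical initiation factor eIF2. Human embryonic stem cells are known for a short G1 phase, for a reliance on FGF and Activin or Nodal signals, and for neural differentiation when those signals are withdrawn.

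The H9 libraries held 937990 to 1878700 reads in coding sequences, or 2449126 over set 2 and 3455844 over set 1. Levels are footprints per 1000000 coding reads (CPM), and 3 reads, the most that a count of 0 allows, stand for 1.22 CPM in set 2 and 0.868 CPM in set 1. Counts of the libraries were compared pair by pair with a chi-square, taking genes that had 20 reads or more in both together, where sampling noise alone gives about 1 per degree of freedom. The value was 1.07 within set 2 and 1.04 within set 1, slightly more than noise, and 2.67 to 3.31 for the 4 pairs that cross the sets. Over 9121 genes in set 2 and 9951 in set 1, the chi-square probability of that small excess was 5.88e-07 and 0.00209. HEK293T libraries of 1 siRNA label and 1 set gave 1.01 to 1.03, and those of 1 label across the sets 3.95 to 5.57. HEK293T eIF2A siRNA against control siRNA within a set gave 8.43 to 9.44. The HEK293T libraries held 4331459 to 5775177 coding reads. For a given difference this value grows with the reads, so HEK293T and H9 values are not on 1 scale. The libraries of an H9 set were therefore summed and each set was counted as 1 sample, which leaves no replicate check and no p-value for a gene. Uniquely placed reads outside coding sequences made up 31.0% in both set 2 libraries, against 28.9% and 29.0% in set 1, a difference whose source and whose part in the results were not tested.

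The gene targeted by the shRNA followed the set number and not the shRNA label. EIF2A had 68.2 CPM in the eIF2A-labelled and 60.9 CPM in the control-labelled library of set 2, against 110.2 CPM in the eIF2A-labelled and 103.4 CPM in the control-labelled library of set 1. Set 2 over set 1 was 0.595, with a 95% interval of 0.49 to 0.719. All intervals in brackets are 95% exact binomial intervals, which take in the counting error alone. Within a set, the eIF2A label over the control label gave 1.12 (0.802 to 1.56) in set 2 and 1.07 (0.864 to 1.32) in set 1, so EIF2A was not detectably lower in the library labelled eIF2A shRNA in either set. In HEK293T, EIF2A footprints were 0.559 (0.5 to 0.626) times those under control siRNA in set 2 and 1.15 (1.05 to 1.26) times in set 1. The letters in the names that the authors gave their H9 files also go with the set number and not with the shRNA label. Whether shRNA labels and set numbers were exchanged in the labels was not tested and cannot be settled from these files. If they were, each ratio of set 2 over set 1 given here would compare shRNAs, and each ratio of labels would compare sets. The labels are used as given throughout.

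The 4 marker genes were chosen with earlier results of these data known, so they describe the separation and do not test it. NES, which encodes the intermediate filament nestin of neural progenitors and of cultured stem cells, had 1066 CPM under the eIF2A label and 1065 CPM under the control label in set 2, against 445 and 481 CPM in set 1. CCND1, the cyclin D1 gene that drives entry into the cell cycle with CDK4 and CDK6, had 159 CPM and 129 CPM in set 2, against 47.9 and 60.9 CPM in set 1. In both genes each set 2 library stood above both set 1 libraries, and the ratio of the sets was 2.31 (2.17 to 2.46) for NES and 2.61 (2.18 to 3.14) for CCND1. The CCND1 ratio was 3.32 between the eIF2A-labelled libraries and 2.12 between the control-labelled ones.

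DENR, which with MCTS1 recycles small ribosomal subunits and lets them reinitiate after short upstream reading frames, had 26.7 CPM and 25.8 CPM in set 2, against 93.7 and 98.3 CPM in set 1. TFAM, the protein that packs mitochondrial DNA and starts its transcription, had 61.8 CPM and 64.2 CPM in set 2, against 172 and 157 CPM in set 1. Both set 2 libraries stood below both set 1 libraries, with ratios of 0.273 (0.205 to 0.357) for DENR and 0.383 (0.319 to 0.458) for TFAM. No interval of the label ratio within a set left out 1 for any of the 4 genes. The eIF2A over control siRNA ratio of HEK293T set 2 was 1.04 for NES, 0.939 for CCND1, 1.14 for DENR and 1.07 for TFAM, so none of them passed 1.5-fold there.

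**Figure D1:**
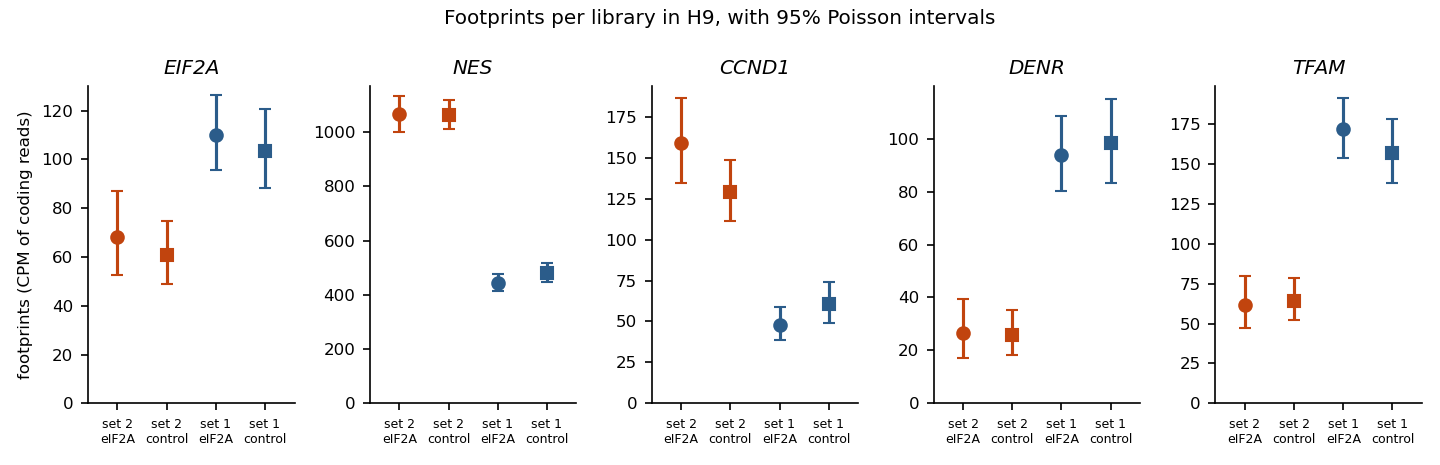
Footprints per 1000000 coding reads (y axis, linear from 0) of EIF2A and the 4 marker genes in each H9 library (x axis), with 95% Poisson intervals of the count. In every panel the 2 libraries of a set lie together, and the eIF2A label does not order them.

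A gene was called when the ratio of the sets reached 1.5 in either direction and its interval left out 1, among 9065 genes with at least 50 reads over the 4 libraries. 728 genes (8.03%) were called, 262 (2.89%) higher in set 2 and 466 (5.14%) lower. The same rule called 234 genes (2.58%) between the eIF2A and control labels within set 2 and 178 (1.96%) within set 1. Between the sets it called 734 genes (8.1%) from the eIF2A-labelled libraries alone and 736 (8.12%) from the control-labelled ones. Of the 728 genes, 725 differed in the same direction under both shRNA labels, and 394 passed 1.5-fold under both, 145 of them higher (1.6% of the genes tested) and 249 lower (2.75%). The 728 were chosen on the sum of these same libraries, so agreement in direction is largely built in and is no replication. With the error rate of the interval set to 0.001 in place of 0.05, 323 genes were called between the sets, against 4 within set 2 and 2 within set 1. Across the 5344 genes with at least 200 reads, the log2 ratios of set 2 over set 1 from the eIF2A-labelled and from the control-labelled libraries had a Pearson correlation of 0.608, and the label ratios of set 2 and set 1 one of 0.012, as a description over genes, which are not replicates. Between labels, 1 of the 9065 genes tested was called in the same direction in both sets, and it was not among the 728.

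**Figure D2:**
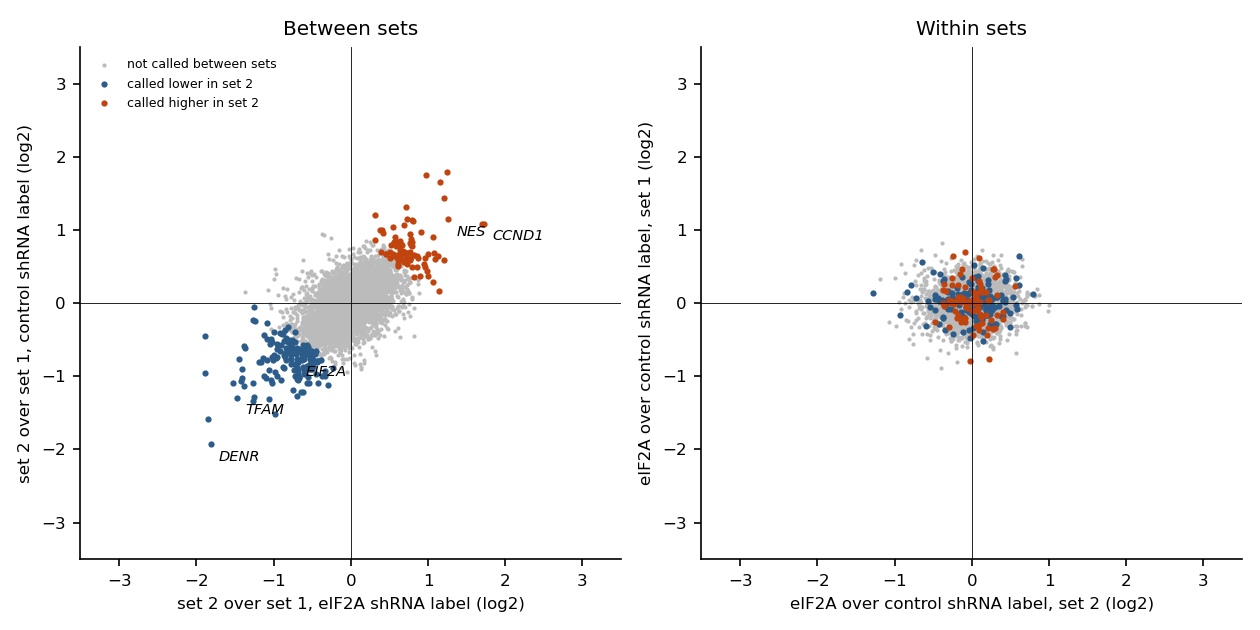
Log2 ratios of the 5344 genes with at least 200 reads, 1 point a gene. Left, set 2 over set 1 from the eIF2A-labelled libraries (x) against the control-labelled libraries (y), where points spread along the diagonal. Right, eIF2A over control label in set 2 (x) against set 1 (y), where the genes called between sets (orange higher, blue lower) lie mixed among the rest around 0.

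The differences were modest for most genes. The median log2 ratio over all genes tested was -0.02, with 5th and 95th percentiles of -0.63 and 0.52. In the fifth of tested genes with the highest levels 0.496% were called higher and 1.21% lower, and in the fifth with the lowest levels 4.02% and 7.76%, so the calls lay mostly among genes of low and middle level, where counting error is also larger.

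Among the 15 genes furthest above set 1 were NES and CCND1, described above. GDF15, a secreted cytokine of the TGF-beta family that many cell stresses induce, had 52.2 CPM and 39.0 CPM in set 2, against 7.98 and 7.61 CPM in set 1, a ratio of 5.64 (3.67 to 8.95). JUN, a subunit of the AP-1 transcription factor, had 46.9 CPM and 62.2 CPM in set 2, against 15.4 and 18.4 CPM in set 1, a ratio of 3.36. The set 2 libraries of both genes stood above the set 1 libraries, which the rule for naming, 1.5-fold under both labels, largely requires. VGF, the precursor of secreted neuropeptides, followed with 2.69 (2.12 to 3.43).

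FLNC, which encodes the actin cross-linker filamin C, had 62.9 CPM and 70.1 CPM in set 2, against 26.6 and 20.3 CPM in set 1, a ratio of 2.84 (2.17 to 3.75). ANLN, the scaffold anillin that organises the contractile ring in cytokinesis, had 88.5 CPM and 66.8 CPM in set 2, against 27.1 and 31.7 CPM in set 1, a ratio of 2.57. CNN1 (calponin) and ACTG2 (smooth muscle gamma-actin) each had a ratio of 2.5, and the ACTG2 value is uncertain because actin genes share near-identical coding sequence. MAP7D3, a microtubule-associated protein, had 2.47, DTNA, which encodes the membrane scaffold alpha-dystrobrevin, 2.23, and FCHO2, which helps to start clathrin-coated pits, 2.23. SOX3, a transcription factor of neural progenitors, had 65.0 CPM and 72.1 CPM in set 2, against 28.2 and 26.6 CPM in set 1, a ratio of 2.53 (1.95 to 3.28). SIX4, a homeobox factor, had 2.35, and ZNF385A, a zinc finger protein, 2.26.

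Among the 15 genes furthest below set 1, ZFHX3, a large homeobox transcription factor, had 5.33 CPM and 7.94 CPM in set 2, against 36.7 and 39.9 CPM in set 1, the lowest ratio named here at 0.182 (0.103 to 0.302). GALNT7, an enzyme that adds sugars to mucin-type O-glycans, was measured more deeply, with 48.0 CPM and 56.9 CPM in set 2, against 173 and 171 CPM in set 1, a ratio of 0.311 (0.255 to 0.376). Both set 2 libraries lay below the set 1 libraries for each of these genes, as the rule for naming, 1.5-fold under both labels, largely requires.

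CDC42EP3, an effector of CDC42 that shapes actin and septins, had a ratio of 0.219 (0.104 to 0.415), RALGPS2, an activator of Ral GTPases, 0.308, and RRAS2, itself a Ras-like GTPase, 0.384. CAMK2G, a calmodulin-dependent kinase, had 0.376 and PPP3CB, a catalytic subunit of the phosphatase calcineurin, 0.38. SGPP1, which dephosphorylates sphingosine-1-phosphate, had 0.357 and ZDHHC7, which palmitoylates proteins, 0.392. TBL1X, a subunit of the NCoR corepressor complex, had 0.336 and THOC3, a subunit of the complex that couples transcription to mRNA export, 0.397. The membrane proteins LMBR1 and TMEM184C had 0.357 and 0.333, and DENR and TFAM complete the 15.

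**Figure D3:**
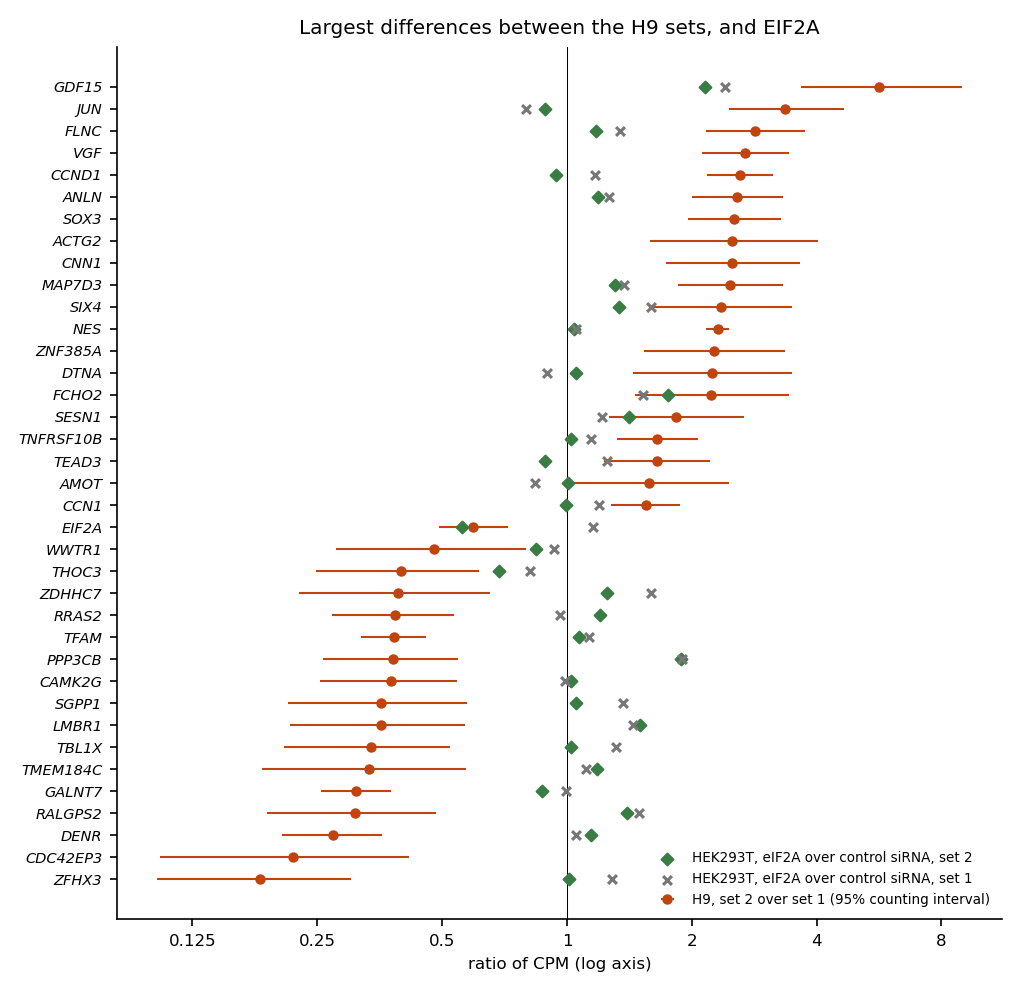
Ratio of CPM (x axis, logarithmic) for the named genes (rows). Orange circles with 95% counting intervals are H9 set 2 over set 1, green diamonds and grey crosses are eIF2A over control siRNA in HEK293T set 2 and set 1. EIF2A is at 0.595 in H9 and 0.559 in HEK293T set 2, while most other genes that differ between the H9 sets have HEK293T values nearer 1. Genes with too few HEK293T reads have no HEK293T symbol.

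Counts of called list members are read against all 9065 genes tested, of which 2.89% were called higher, 5.14% were called lower and 46.7% had a ratio above 1. Unlike the 15 genes named each way, a called list member need not pass 1.5-fold under both labels. In the list of noncanonical initiation and reinitiation factors, 11 genes were tested, of which 1 was called higher and 3 lower. DHX29, a helicase that helps the small subunit scan structured leaders, had a ratio of 0.556 (0.427 to 0.72) and stood with DENR and EIF2A, while TMA7, a small ribosome-associated protein first described in yeast, had 1.6 (1.19 to 2.15). MCTS1, the partner of DENR, had 30.9 CPM and 30.4 CPM in set 2, against 28.2 and 27.9 CPM in set 1, and its ratio was 1.09 (0.796 to 1.49). EIF2D, a single-chain relative of the DENR and MCTS1 pair, had 1.05 (0.801 to 1.37). Both intervals hold 1, so within this family DENR differed while its partner and its relative were not called.

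Of 40 canonical initiation factors and their regulators, none was called higher and 2 (5%) lower, against 5.14% of all genes tested. These were EIF4EBP2, a repressor that sequesters eIF4E, at 0.572 (0.466 to 0.698) and EIF1AX, a scanning factor with processed copies in the genome, at 0.652 (0.498 to 0.847). EIF1AX had 0.57 between the eIF2A-labelled libraries and 0.798 between the control-labelled ones. No member of the 15 elongation, termination and recycling factors was called, with EEF2 at 1.04 and EIF5A at 1.22, nor any of 21 aminoacyl-tRNA synthetases, with TARS1 at 1.03 and GARS1 at 0.864.

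Cytosolic ribosomal proteins shifted together by a small amount. Their summed footprints were 28058 CPM and 27716 CPM in set 2, against 32362 and 32341 CPM in set 1, a ratio of 0.861 (0.853 to 0.869). Only 11 of the 66 tested members had a ratio above 1, against 46.7% of all genes tested, and the median log2 ratio of the members was -0.25. Few passed 1.5-fold: RPS14 (0.568), RPL34 (0.601) and RPS12 (0.658) were called lower and RPL9 (1.86) higher. Ribosomal protein genes have many processed copies, and reads with more than 1 placement were not counted, so single members are uncertain. RPS10 and RPS18 had no read in any H9 library, for a reason that was not tested. Ribosome biogenesis factors had 1 call each way among 48, DDX18, a nucleolar helicase, at 0.6, and NPM1, the nucleolar chaperone nucleophosmin, which has many copies, at 1.57.

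Among 19 genes of mitochondrial DNA maintenance and transcription TFAM alone was called. POLRMT, the mitochondrial RNA polymerase, had 40.5 CPM and 49.0 CPM in set 2, against 67.6 and 67.8 CPM in set 1, a ratio of 0.675 (0.534 to 0.85) that does not reach the fold required. The initiation factor TFB2M, which works with TFAM, had 1.17 (0.948 to 1.45), and TFB1M, a methyltransferase of mitochondrial ribosomal RNA, 1.07 (0.799 to 1.42). TFB1M is the 1 gene of 9065 called between labels in the same direction in both sets. Its eIF2A over control label ratio was 1.57 (1.01 to 2.45) in set 2 and 1.52 (1.02 to 2.28) in set 1. Oxidative phosphorylation summed to 0.929 (0.917 to 0.941) of set 1 over 75 tested nuclear genes, 22 of them (29.3%) above 1, with NDUFB1, a subunit of complex I, and CYCS, cytochrome c, called lower at 0.559 and 0.664. The citric acid cycle summed to 0.921, with 5 of 19 members (26.3%) above 1 and IDH2, its mitochondrial NADP-dependent isocitrate dehydrogenase, called lower at 0.613. Of 77 mitochondrial ribosomal proteins 26 (33.8%) lay above 1, against 46.7% of all genes tested, and MRPS10 (0.597) and MRPS16 (0.643) were called lower. No glycolytic gene of 18 was called, with ENO1 at 0.944 and LDHB at 0.924, and the summed footprints of glycolysis had a ratio of 1.02 (1.01 to 1.03). In cholesterol and fatty acid synthesis MVK, mevalonate kinase, was called lower at 0.658 among 32.

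Among the D-type cyclins only CCND1 was called. CCND2 had 328 CPM and 339 CPM in set 2, against 262 and 232 CPM in set 1, a ratio of 1.35 (1.22 to 1.49), and CCND3 had few reads and a ratio of 0.706 (0.397 to 1.22). Of 20 tested genes of the G1 to S transition, CDKN1C, the inhibitor p57, was the only other call, with 30.9 CPM and 34.4 CPM in set 2, against 18.1 and 17.8 CPM in set 1, a ratio of 1.84 (1.31 to 2.61). An activator and an inhibitor of G1 cyclin-dependent kinases were thus both higher.

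Of 44 DNA replication genes none was called higher and 3 (6.82%) lower, near the 5.14% of all genes tested. RPA1, the large subunit of the protein that coats single-stranded DNA, had 198 CPM and 183 CPM in set 2, against 474 and 444 CPM in set 1, a ratio of 0.41 (0.369 to 0.455). RFC1, the large subunit of the clamp loader, had 0.518 (0.412 to 0.647), and POLD2, a subunit of DNA polymerase delta, 0.592 (0.458 to 0.759). The list as a whole summed to 1.04 (1.02 to 1.05), with 22 of 44 members above 1. ANLN was the only call among 37 mitosis genes, whose median log2 ratio was 0.18. The 52 replication-dependent histone genes had no call, with 28269 CPM and 28274 CPM in set 2, against 31590 and 31549 CPM in set 1, and 12 members above 1. H1-4 had 0.978 and H3C2 0.78. Histone genes of 1 class share long stretches, which limits what single members show.

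Neural progenitor genes did not move in 1 direction. Of 13 tested, 3 (23.1%) were called higher and 3 (23.1%) lower, against 2.89% and 5.14% of all genes tested. Ratios above 1 were seen in 6 members, and the sign of the members' median depended on the libraries used. The summed footprints had a ratio of 1.15 (1.12 to 1.19), a sum that includes NES at 1065 CPM in set 2 against 461 CPM in set 1. Beside NES and SOX3, SOX9, a progenitor and neural crest factor, was called higher at 1.82 (1.33 to 2.49). SOX11, a factor of newly formed neurons, had 84.2 CPM and 76.8 CPM in set 2, against 180 and 157 CPM in set 1, a ratio of 0.47 (0.398 to 0.554). TUBB3, a tubulin of neurons, was called lower at 0.598 (0.515 to 0.693) and HES3, a repressor of the HES family, at 0.64. HES3 had 0.454 between the eIF2A-labelled libraries and 0.797 between the control-labelled ones. PAX6 and NEUROG2, defining factors of neural tissue, had no read in any H9 library. Among the members not called, the neural adhesion gene NCAM1 had a log2 ratio of 0.57, ZIC2 one of -0.35, MAP2 one of -0.43 and VIM one of -0.05.

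The labelled cell type was checked with pluripotency genes. Of 25 tested, 2 were called higher in set 2, both secreted members of the TGF-beta family: GDF3 at 1.63 (1.1 to 2.41) and LEFTY1 at 1.51 (1.08 to 2.1). GDF3 had 2.26 between the eIF2A-labelled libraries and 1.22 between the control-labelled ones. The summed list stood at 0.954 (0.938 to 0.971). SOX2 had 265 CPM and 292 CPM in set 2, against 256 and 245 CPM in set 1, LIN28A had a ratio of 0.74 (0.683 to 0.802) and NANOG 0.77 (0.552 to 1.06). POU5F1, which encodes OCT4 and has near-identical copies, had no counted read in any of the 4 libraries, so it gives no information here. The reason for its lack of reads was not tested.

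Most markers of other lineages had too few reads to be tested, and those with enough reads ranged widely in level. Of the mesoderm list 1 of 16 genes was tested, KDR at 1.16, with 295 CPM and 263 CPM in set 2, against 234 and 239 CPM in set 1, and TBXT, EOMES and MESP1 had no read. In the endoderm list 1 of 12 was tested, KIT at 0.838, and SOX17 and GATA6 had no read. The trophoblast and amnion list had 2 tested genes of 15, KRT7 at 0.898 and IGFBP3 at 0.706, with CDX2 and GATA3 at 0 reads. The neural crest and ectoderm list had 3 of 16, with KRT19 at 1.01 and KRT8, with 255 CPM and 270.0 CPM in set 2, against 201 and 192 CPM in set 1, at 1.34. None of these genes was called.

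Fibroblast markers, of which 5 of the 8 tested had a ratio above 1, were higher as a sum. Their total was 1399 CPM and 1354 CPM in set 2, against 1106 and 1076 CPM in set 1, a ratio of 1.26 (1.2 to 1.32). Of these, COL1A2, a chain of type I collagen, was called higher with 256 CPM and 249 CPM in set 2, against 149 and 143 CPM in set 1, a ratio of 1.72 (1.53 to 1.94), and PDGFRB, a receptor of mesenchymal cells, at 1.94 (1.28 to 2.94). The defining markers DCN, LUM and FAP had no read in any of the 4 H9 libraries. Of the other tested members, S100A4 had a log2 ratio of -0.64, ACTA2 one of -0.12 and THY1 one of -0.06, while COL1A1, TAGLN and FN1 had 0.54, 0.46 and 0.39. The part of such cells in the result was not tested.

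Genes of the extracellular matrix, integrins and cadherins shifted upward in breadth. Of 35 tested, 31 had a ratio above 1, the median log2 ratio was 0.30 and the summed footprints stood at 1.25 (1.22 to 1.28) of set 1. The basement membrane proteins NID1 and NID2 were called higher at 1.64 (1.33 to 2.03) and 1.83 (1.08 to 3.14). CDH1, the adhesion protein E-cadherin of epithelial and pluripotent cells, had 319 CPM and 314 CPM in set 2, against 204 and 205 CPM in set 1, a ratio of 1.54 (1.39 to 1.71). COL1A2 was the other call, and no member was called lower. The cytoskeleton list had 4 (9.09%) called higher and 1 (2.27%) lower of 44, against 2.89% and 5.14% of all genes tested. In that list 27 members lay above 1, and the summed ratio was 1.05 (1.04 to 1.06). Those called higher include FLNC, NES and SPTAN1, a spectrin, at 1.58 (1.21 to 2.07), and TUBB3 was the one called lower. SPTAN1 had 2.09 between the eIF2A-labelled libraries and 1.22 between the control-labelled ones.

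Chaperones of the endoplasmic reticulum, where matrix and membrane proteins fold, moved by a similar share but never past 1.5-fold. They summed to 15150 CPM and 15201 CPM in set 2, against 12520 and 12612 CPM in set 1, a ratio of 1.21 (1.19 to 1.23), with 16 of 21 members above 1. CALR, the lectin chaperone calreticulin, had 1.3 (1.27 to 1.34) and HSP90B1 1.12. The cytosolic heat shock list had no call among 16, with HSP90AB1 at 1.11 and HSPA8 at 1.18, and TRiC chaperonin, proteasome and nonsense-mediated decay genes had none among 8, 36 and 18. CCT3 and CCT5 had 1.04 and 0.975, PSMB4 and PSMD1 1.08 and 1.12, EIF4A3 and UPF1 0.997 and 0.882.

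**Figure D4:**
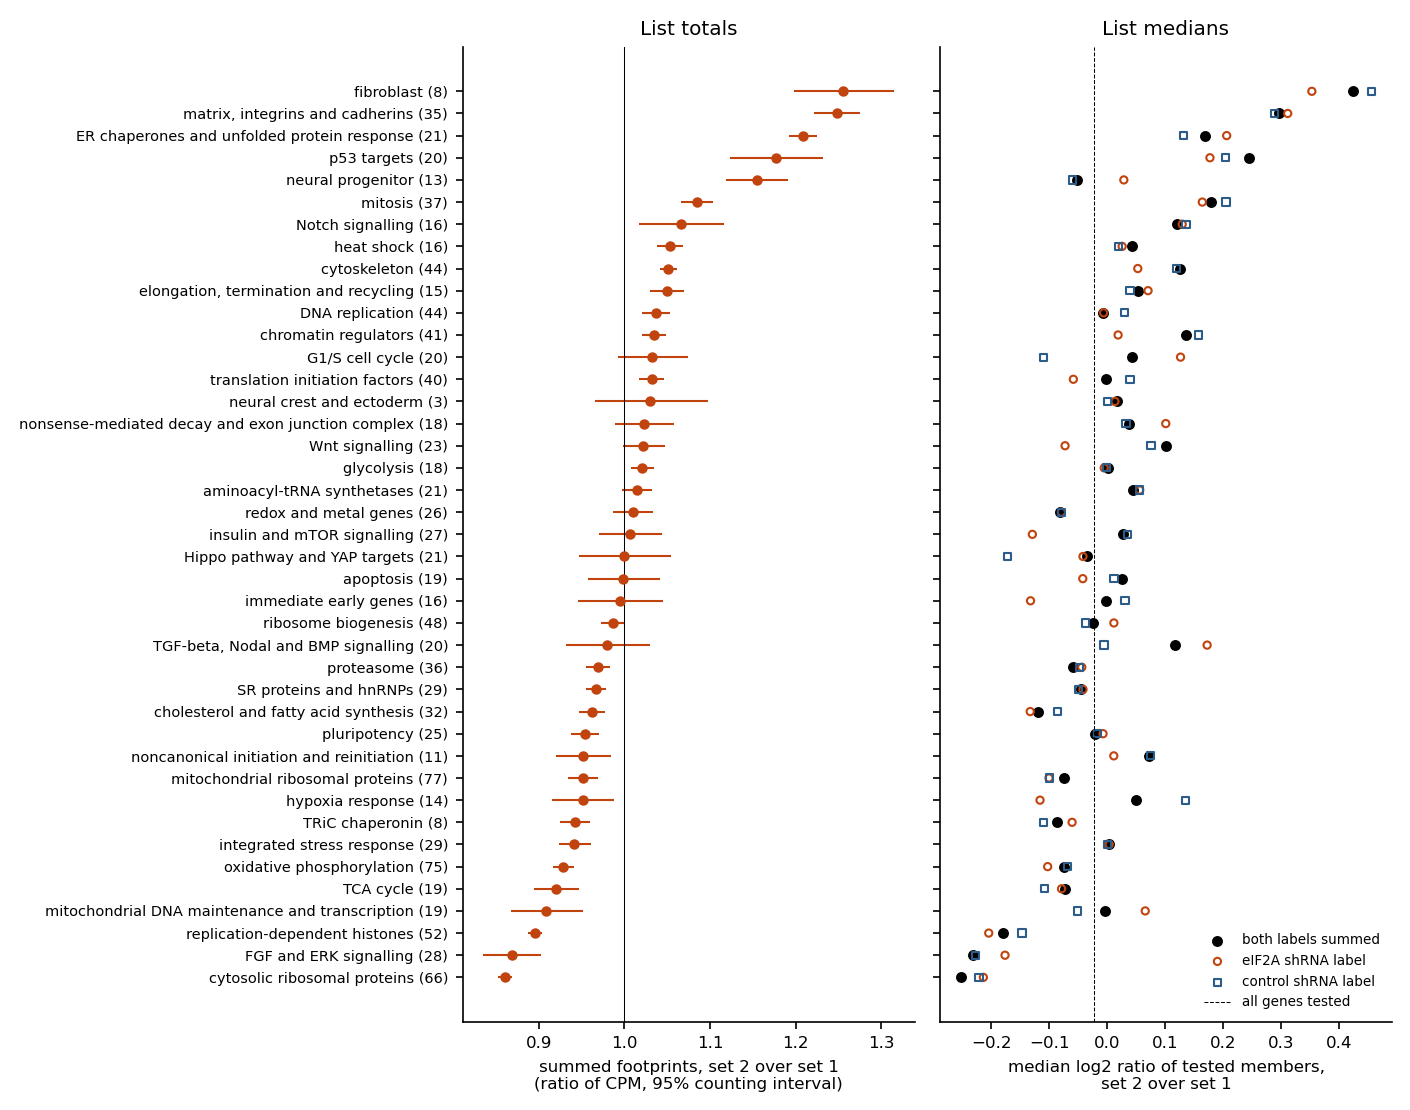
Gene lists with at least 3 tested members (rows, number tested in brackets). Left, ratio of summed footprints of set 2 over set 1 with 95% counting intervals. Right, median log2 ratio of the members from both labels summed and from each label alone, with the median of all genes tested as a dashed line. Fibroblast, matrix and endoplasmic reticulum lists lie at the high end and cytosolic ribosomal proteins, FGF and ERK signalling and histones at the low end.

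Stress programmes did not move as one. Targets of p53 had 3 (15%) called higher and none lower among 20, with 16 members (80%) above 1, against 2.89%, 5.14% and 46.7% of all genes tested, and a median log2 ratio of 0.25. Beside GDF15 these were SESN1, a sestrin that restrains mTORC1, at 1.84 (1.27 to 2.68) and TNFRSF10B, a death receptor, at 1.65 (1.32 to 2.07). SESN1 had 1.26 between the eIF2A-labelled libraries and 2.73 between the control-labelled ones, and TNFRSF10B had 1.95 and 1.41. Of 16 immediate early genes 3 (18.8%) were called higher, JUN, ATF3 at 1.98 (1.23 to 3.23) and CCN1, a matricellular protein, at 1.55 (1.28 to 1.88). The immediate early list as a whole did not move, with 8 of 16 members above 1 and a summed ratio of 0.995 (0.946 to 1.05). The integrated stress response list had ATF3 higher and 2 of 29 genes lower, SLC7A5, an amino acid transporter, at 0.574 (0.488 to 0.674) and PSPH, of serine synthesis, at 0.601, and its summed footprints stood at 0.942.

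HIF1A, the oxygen-regulated transcription factor, had 349 CPM and 328 CPM in set 2, against 563 and 504 CPM in set 1, a ratio of 0.627 (0.577 to 0.681). BNIP3, a target of it that promotes mitophagy, was the other call of 14 hypoxia genes, at 0.599. Called lower were thus 14.3% of that list, against 5.14% of all genes tested, while 8 of its 14 members had a ratio above 1. Apoptosis genes had 3 (15.8%) called lower of 19, APAF1, the core of the apoptosome, at 0.504, BIRC2, an inhibitor of apoptosis, at 0.524 and CYCS, so the calls include both a promoter and an inhibitor of cell death. The apoptosis list as a whole did not move, with 10 of 19 members above 1 and a summed ratio of 0.998 (0.957 to 1.04). MT1E, a metallothionein, was called higher at 1.79 among 26 redox and metal genes (3.85%, against 2.89% of all genes tested).

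TGF-beta, Nodal and BMP signalling had the most calls of the signalling lists, 5 (25%) higher and 1 (5%) lower of 20, against 2.89% and 5.14% of all genes tested. ID1, a BMP target that blocks basic helix-loop-helix factors, had 107 CPM and 138 CPM in set 2, against 85.7 and 76.1 CPM in set 1, a ratio of 1.55 (1.32 to 1.83). That ratio was 1.24 between the eIF2A-labelled libraries and 1.82 between the control-labelled ones. INHBE, an activin subunit, had 1.66 (1.27 to 2.17), and GDF3 and LEFTY1, given above, were also among the higher members. The receptor TGFBR1 was called lower at 0.621 (0.481 to 0.797). The list's summed footprints had a ratio of 0.98 (0.931 to 1.03).

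FGF and ERK signalling lay lower in breadth, with 7 of 28 members above 1 and a summed ratio of 0.868 (0.835 to 0.903). Only DUSP4, a phosphatase that ERK induces and that silences it, was called, at 0.56 (0.338 to 0.903). In the Wnt list AXIN2, a feedback target, was called higher at 1.92 (1.37 to 2.69), and its paralog AXIN1, a scaffold of the destruction complex, lower at 0.63 (0.435 to 0.9), among 23. In the Notch list the target HES1 was called higher at 1.77 (1.27 to 2.49) and RFNG, a fringe enzyme that modifies the receptor, lower at 0.653, among 16. HES1 had 2.43 between the eIF2A-labelled libraries and 1.36 between the control-labelled ones.

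The Hippo pathway and its targets had 3 (14.3%) called higher and 1 (4.76%) lower of 21, against 2.89% and 5.14% of all genes tested. TEAD3, a DNA-binding partner of YAP, had 1.65 (1.23 to 2.21), AMOT, a junction protein that holds YAP in the cytoplasm, 1.58 (1.02 to 2.45), and CCN1, a target, was given above. WWTR1, which encodes the coactivator TAZ, had 0.478 (0.277 to 0.795) on low counts. In insulin and mTOR signalling RRAGA, a GTPase that brings amino acid signals to mTORC1, was called lower at 0.625 (0.496 to 0.783) and AKT1 at 0.623 (0.414 to 0.923), among 27. The AKT1 call rests on the eIF2A-labelled library of set 1, with 30.9 CPM. The control-labelled library of set 1 had 17.8 CPM, and the set 2 libraries had 14.9 and 15.9 CPM. HNRNPA3 was called higher at 1.77 among 29 SR proteins and hnRNPs, and KMT2C, a histone methyltransferase, at 1.65 among 41 chromatin regulators. KMT2C had 1.24 between the eIF2A-labelled libraries and 2.3 between the control-labelled ones.

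The same rule was applied between the sets of the other cell line. HEK293T set 2 over set 1 called 516 of 11959 genes (4.31%) under eIF2A siRNA and 321 (2.68%) under control siRNA. With TMM scaling the calls were 378 and 321. The HEK293T libraries had more reads than those of H9, so these counts and the H9 counts are not on 1 scale. Under eIF2A siRNA EIF2A itself differed between the HEK293T sets, with a ratio of 0.486 (0.436 to 0.542), so that count mixes set with EIF2A level. Under control siRNA the interval of the EIF2A ratio, 0.911 to 1.1, held 1. The H9 differences were also set beside eIF2A over control siRNA of HEK293T set 2, in which EIF2A was lower and which called 6.41% of 11959 genes higher and 3.34% lower. With TMM scaling those calls were 582 higher and 533 lower in place of 767 and 399.

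Of the 262 genes higher in H9 set 2, 225 were tested in HEK293T, and 22 of them (9.78%) were called higher and 6 (2.67%) lower there. Of the 466 genes lower in H9 set 2, 442 were tested, and 39 (8.82%) were called higher and 19 (4.3%) lower. All 8628 genes tested in both lines gave 4.88% and 2.96%. Genes from both sides of the H9 comparison were thus called higher in HEK293T more often than lower, as were all genes tested in both lines. GDF15 was higher under eIF2A siRNA in both HEK293T sets, at 2.15 (1.58 to 2.96) in set 2 and 2.41 (1.77 to 3.3) in set 1, where EIF2A was not lower. PPP3CB, lower in H9 set 2, was likewise higher in both HEK293T sets, at 1.88 and 1.9. Endoplasmic reticulum chaperones had a median log2 ratio of 0.17 in H9, and of -0.25 in HEK293T set 2 and -0.27 in set 1. FGF and ERK signalling had -0.23 in H9, and 0.24 and 0.32 in HEK293T set 2 and set 1. The matrix list had 0.30 in H9, and -0.14 and 0.05 in HEK293T set 2 and set 1. All genes tested had medians of -0.02 in H9, and 0.06 and 0.13 in HEK293T set 2 and set 1. The matrix list thus lay below all genes tested in both HEK293T sets. The lines also differ in arsenite, immunoprecipitation and the kind of RNA interference, so such contrasts cannot be assigned to any of them.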

How the data were processed

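The submitters' processing notes name cutadapt, STAR 2.5.2b and the human build hg19. Which counter, strand setting and annotation release the authors used is not given in the sources used here. Each file deposited by the authors holds raw whole-number counts per coding sequence, with 1 RefSeq accession a row. Rows that name no gene, 96.2 to 96.5% of the H9 counts and mostly reads with more than 1 placement, stayed out of library sizes, which undercounts genes that have near-identical copies. RefSeq's table for GRCh38.p14, used for names only, named 18888 of 19305 accessions.

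Groups came from the sample titles. Libraries of an H9 set were summed and scaled to total coding reads. HEK293T libraries of 1 siRNA label and set were summed over CBP80 and eIF4E. Ratios carry exact conditional binomial intervals (95%), and fragments without molecular identifiers make these counting error only. Python 3.11.15, scipy 1.17.1, R 4.3.3 and, for scaling factors alone, edgeR 4.0.16 were used. On simulated counts for H9 set 2 over set 1 (9050 genes, 200 changed 2-fold) the rule recovered 95.9% of the changed genes and called 1.19% of the others. The simulation held counting error alone and no variation between samples, so these shares do not give the error rates of the real comparison.

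The members, the 44 gene lists and the rule for named genes were chosen with earlier results of these data known. Named genes are NES, CCND1, DENR, TFAM and EIF2A, the 15 highest and 15 lowest ratios among called genes with at least 20 CPM in the higher set that pass 1.5-fold under both labels, up to 6 called members per list or 2 most abundant members where none was called, and relatives of CCND1, DENR and TFAM. A few named genes are not reported here by value and enter counts only. Alternatives were TMM and RLE scaling, totals without the 20 most abundant genes, other count filters, folds and confidence levels, each label alone and each library left out. Bins of protein length were not run.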

Additional observations from a re-analysis of the deposited data

Results flagged for a closer look

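EIF2A, the gene targeted in the series, moved opposite ways in the sets of HEK293T. The eIF2A over control siRNA ratio was 0.559 in set 2 and 1.15 in set 1, and all 4 libraries labelled eIF2A siRNA followed their set. With CBP80 the ratio was 0.558 in set 2 and 1.13 in set 1, and with eIF4E 0.557 and 1.17. The difference between the sets was not tested, since the CBP80 and eIF4E libraries of a label differ by little more than sampling noise and leave 1 sample for each label and set. In H9 the label moved EIF2A in neither set beyond counting error.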

How the results depend on the processing

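Between the H9 sets 728 genes were called (262 higher, 466 lower). TMM scaling called 725 (291 higher, 434 lower) and RLE scaling 727 (306 and 421). The total without the 20 most abundant genes called 724, and leaving out a library called 726 to 752. These are totals under each setting, and how many of the 728 recur was not counted. Stricter settings lowered the counts by construction: 255 (87 higher, 168 lower) with at least 200 reads a gene, 141 (43 and 98) at a fold of 2, and 323 (118 and 205) with an interval error rate of 0.001. That rate left 4 calls between labels in set 2, 2 in set 1, 211 and 90 between HEK293T sets under eIF2A and control siRNA, and 705 for HEK293T eIF2A over control siRNA in set 2 (472 higher, 233 lower). The CCND1 ratio was 3.32 between eIF2A-labelled and 2.12 between control-labelled libraries, and the cause was not tested. The ratios of NES, DENR, TFAM and EIF2A moved by less than their intervals in every alternative run. No called ratio of a named gene changed direction. The sign of the median held under each scaling, label and left-out library for 25 of 41 lists, among them matrix, endoplasmic reticulum, p53, ribosomal protein, histone, FGF and ERK. TMM scaling and the stricter error rate were added for comparisons other than H9 set 2 over set 1 after the data were seen. No paired analysis was possible because the result comes from no test, and ratios matched by shRNA label are given in its place. Bins of protein length were not run because no lengths were given. Depth limits genes of low level: 3 reads are 1.22 CPM in set 2.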
